A study of Mus musculus with 6 samples.

Results

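A set of 10 genes, called the iron genes here, was followed in cultured mouse alveolar macrophages. These genes serve to store, take up, export and sense iron, apart from Blvrb, whose product acts on products of heme breakdown. They were taken by name, as Fth1, Ftl1, Tfrc, Slc40a1, Slc11a1, Slc11a2, Ncoa4, Aco1, Ireb2 and Blvrb, from the 16840 gene symbols of the deposited count table, with earlier results of these data known. All 10 were in the table, and all 10 passed the filter on low counts that left 12340 genes for testing. RNA sequencing of wild-type cells at day 2 gave 3 groups of 2 libraries, which were GM-CSF with DON, GM-CSF alone and no GM-CSF. GM-CSF (granulocyte-macrophage colony-stimulating factor) is the cytokine on which alveolar macrophages depend, and DON is a treatment that the labels name without spelling out. No dose, vehicle, mouse strain or age is among the labels used here, and neither the origin of the cells (primary or an established line) nor whether the 2 libraries of a group came from separate cultures or animals is stated. The p-values therefore measure only the spread between these libraries.

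Cells hold iron in ferritin, a hollow shell built of heavy and light chains, and the adaptor NCOA4 carries ferritin to lysosomes, where the iron is freed. Iron bound to transferrin enters through the transferrin receptor, divalent metal transporters move it out of endosomes and phagosomes, and ferroportin is the exporter of iron from the cell. The iron regulatory proteins, products of Aco1 and Ireb2, bind stem loops called iron responsive elements when iron is scarce. Bound before the coding sequence, they block translation, as in the ferritins, and bound after it, they keep the transferrin receptor transcript from being degraded. Macrophages of the lung and spleen are known for storing and recycling iron taken from red cells and debris.

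The stem loops are shown because they are the part of these transcripts that the iron regulatory proteins read. The untranslated regions of GENCODE M21 coding transcripts (GRCm38) were searched on the transcribed strand for C, any 5 bases, the loop CAGTGN and 5 bases that pair with those before the loop, G-U pairs allowed. A match before the coding sequence was found in 31 of 20883 genes (0.148%), and 3 of the 10 iron genes were among them, Fth1, Ftl1 and Slc40a1. A match after it was found in 129 of 21005 genes (0.614%), and of the 10 only Tfrc was among them, with 4 matches. The ferritins and the transferrin receptor were known beforehand to carry these elements. The shares over all genes are therefore a description and not a test of enrichment. The sequences read 5′ to 3′ as DNA, each element with 5 bases on either side, and the capitals mark the loop that the proteins contact.
Fth1 5′ element, chr19:9982733-9982759 (+ strand): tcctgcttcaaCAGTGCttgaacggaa
Ftl1 5′ element, chr7:45459780-45459806 (- strand): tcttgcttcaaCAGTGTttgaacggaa
Slc40a1 5′ element, chr1:45925466-45925492 (- strand): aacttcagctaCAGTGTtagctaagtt
Tfrc 3′ element 1, chr16:32631220-32631246 (+ strand): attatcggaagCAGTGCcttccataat
Tfrc 3′ element 2, chr16:32631599-32631625 (+ strand): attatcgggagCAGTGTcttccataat
Tfrc 3′ element 3, chr16:32631664-32631690 (+ strand): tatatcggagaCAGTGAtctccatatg
Tfrc 3′ element 4, chr16:32631711-32631737 (+ strand): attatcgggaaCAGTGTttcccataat
The ferritin elements lay 116 (Fth1) and 154 (Ftl1) bases before the start codon. Not every annotated coding transcript held an element: 4 of 5 did for Fth1, 1 of 2 for Ftl1, 1 of 4 for Slc40a1 and 1 of 3 for Tfrc. The counts are summed per gene and do not separate these transcripts. For the other members no match says only that no such loop with all 5 stem bases paired was in their annotated untranslated regions. An element with a mismatch or bulge in these pairs would not have been found.

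Total counts were between 28321986 and 35196387 per library. The replicates of a group differed by more than sampling noise, with a chi-square of 4.50 to 8.46 per degree of freedom over genes, so that no pair was 1 library deposited again. Levels are given as CPM, counts per 1e6 of a library size adjusted with TMM (trimmed mean of M values), whose factors were 0.945 to 1.03. The labelled cell type was checked on 14 alveolar macrophage markers, all in the table, which summed to 35557 to 37185 CPM with GM-CSF and DON, 30654 to 30727 with GM-CSF alone and 47392 to 48144 without GM-CSF. Of these markers, 9 rose and 4 fell with DON, and 3 rose and 8 fell with GM-CSF. Over all genes tested, 28.8% rose and 28.8% fell with DON, and 27.5% and 29.3% with GM-CSF. Lyz2 was the highest of them in each group, at a mean of 18908, 17072 and 36585 CPM in the same order. The sums therefore do not show the level of each marker. Car4, 1 of the 3 that rose with GM-CSF, had 325 and 303 CPM with GM-CSF and DON. It had 661 and 652 CPM with GM-CSF alone and 0.215 and 0.238 without GM-CSF. In bulk samples, fewer cells of a type and less RNA per cell cannot be told apart.

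The first comparison asked what DON did to iron genes in cells that had GM-CSF. With DON, 6 of the 10 rose, 3 fell and 1 did not pass the test, at an adjusted p under 0.05 in edgeR's quasi-likelihood test over all 12340 genes. Of all genes tested, 57.6% were called, 28.8% higher and 28.8% lower. The genes that rose were both ferritin chains, the ferritin adaptor Ncoa4, both metal transporters and Blvrb, while the transferrin receptor and both iron regulatory protein genes fell. The median log2 fold change of the 10 was 0.37, against 0.01 over all genes. The libraries of the groups did not overlap for any of the 10, as was so for 79.4% of all genes.

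The second comparison asked what GM-CSF did. With it, 8 of the 10 fell, none rose, and Aco1 and Ireb2 did not pass the test, while 56.8% of all genes were called, 27.5% higher and 29.3% lower. The libraries of the groups did not overlap for the 8 that fell and overlapped for Aco1 and Ireb2, and 78.7% of all genes did not overlap. The median log2 fold change of the 10 was -0.96, against -0.02 over all genes. In the third comparison, all 10 were lower with GM-CSF and DON than without GM-CSF, where 55.6% of all genes were called, 27.2% higher and 28.4% lower. None of the 10 overlapped there, as was so for 77.6% of all genes. Its median was -0.60, against 0.01 over all genes. Each pair of comparisons shares the libraries of 1 group, so that their signs in a gene are not independent of each other, and the values of all 3 groups are given side by side. Scaling by total counts in place of TMM moved the median of all genes by 0.12 on the log2 scale for GM-CSF against no GM-CSF. The split of calls there was 4587 higher and 2689 lower by total counts and 3393 higher and 3621 lower with TMM. Between GM-CSF with DON and no GM-CSF the split was 4408 higher and 2746 lower by total counts, and 3353 and 3506 with TMM. None of the calls on iron genes named above as risen or fallen was lost under it.

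**Figure D1:**
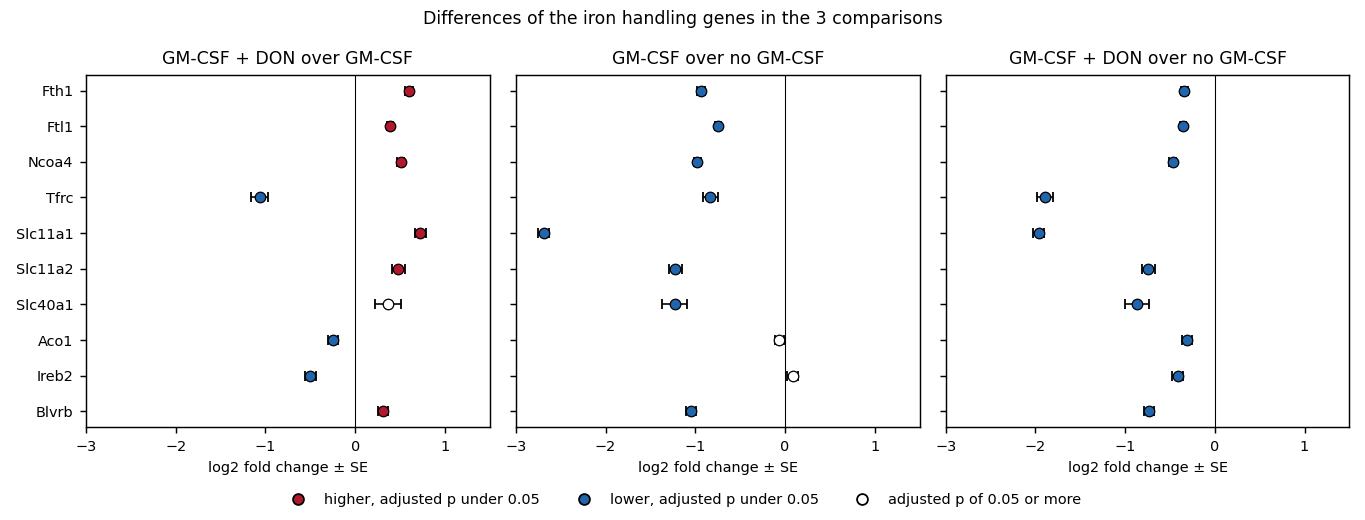
Log2 fold change (horizontal axis) of each of the 10 iron genes (rows) in the 3 comparisons (panels), with bars for the SE. Filled points passed the test, and open points did not. In the first panel 6 filled points and the open point of Slc40a1 lie to the right of 0 and Tfrc lies farthest to the left, at -1.06, and in the second Slc11a1 lies farthest to the left, at -2.69.

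Markers of other cells also differed between the groups. Of 10 neutrophil markers, 5 were in the table, and their summed level was 11.9 to 13.8 CPM with GM-CSF and DON, 6.91 to 7.54 with GM-CSF alone and 90.5 to 93.1 without GM-CSF, with Cxcr2 the highest by mean with GM-CSF and DON and without GM-CSF, S100a8 the highest with GM-CSF alone, and Camp at 0 in at least 1 group. Of 12 erythroid markers, 4 were in the table and summed to 0.280 to 0.399 CPM with GM-CSF and DON, 0.403 to 0.528 with GM-CSF alone and 3.81 to 4.16 without GM-CSF, with Epor the highest and the globin gene Hba-a2 at 0 with GM-CSF and DON and at most 2 counts in any library. All 6 dendritic cell markers were in the table and summed to 25.3 to 25.6 CPM with GM-CSF and DON, 27.7 to 28.0 with GM-CSF alone and 8.64 to 8.82 without GM-CSF, with Clec9a and Batf3 the highest by mean in each group and Cd209a at 0 in at least 1 group. Of 9 lung epithelium markers, 8 were in the table and summed to 80.1 to 82.7 CPM with GM-CSF and DON, 69.7 to 71.2 with GM-CSF alone and 92.6 to 101 without GM-CSF, most of it Abca3, with Sftpc and Sftpb at 0 in at least 1 group. Lymphocyte markers (3 of 8 in the table) summed to at most 1.20 CPM and stroma and endothelium markers (all 8) to at most 3.19 CPM in any library. The part of these cells in the differences of the iron genes was not tested.

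Ferritin transcripts were among the most abundant of the cells. Fth1 encodes the heavy chain, which oxidizes iron for storage, and lies at chr19:9980598-9985098 (GRCm38). It stood at 16296 and 14899 CPM with GM-CSF and DON, at 10463 and 10099 CPM with GM-CSF alone and at 19510.2 and 19946 CPM without GM-CSF. The libraries with DON thus lay between the other groups, with no overlap on either side. The log2 fold change was 0.60 ± 0.04 for DON against GM-CSF alone (1.52-fold, adjusted p = 1.91e-06) and -0.94 ± 0.04 for GM-CSF against no GM-CSF (1.92-fold lower, adjusted p = 5.75e-08). With DON it was still 1.26-fold lower than without GM-CSF (adjusted p = 8.72e-05). Ftl1 encodes the light chain, which supports the mineral core, and lies at chr7:45457944-45459884. Its levels were 15252 and 15117 CPM with GM-CSF and DON, 11935 and 11316 with GM-CSF alone and 19341 and 19562 without GM-CSF, in the same order and again without overlap. It rose 1.31-fold with DON (log2 0.39 ± 0.03, adjusted p = 6.89e-06) and fell 1.67-fold with GM-CSF (log2 -0.74 ± 0.03, adjusted p = 5.17e-08). Ferritin genes have processed copies of similar sequence. Of those in the table, Ftl2 had between 5 and 16 counts and Fth-ps2 between 0 and 1, and how reads shared with such copies were counted is not given in the sources used here.

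The ferritin chains together took 3.19 and 3.08% of all counts with GM-CSF and DON, 2.31 and 2.22% with GM-CSF alone and 3.67 and 3.78% without GM-CSF. By count, Fth1 ranked between 3 and 7 of the 16840 genes over the 6 libraries and Ftl1 between 3 and 5. The ratio of Fth1 to Ftl1 counts within a library, which needs no scaling between libraries, was 1.07 and 0.986 with GM-CSF and DON, 0.877 and 0.892 with GM-CSF alone and 1.01 and 1.02 without GM-CSF. GM-CSF alone thus had the lowest ratio, and the libraries with DON and those without GM-CSF overlapped. These shares and ratios are given as a description and were not tested.

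**Figure D2:**
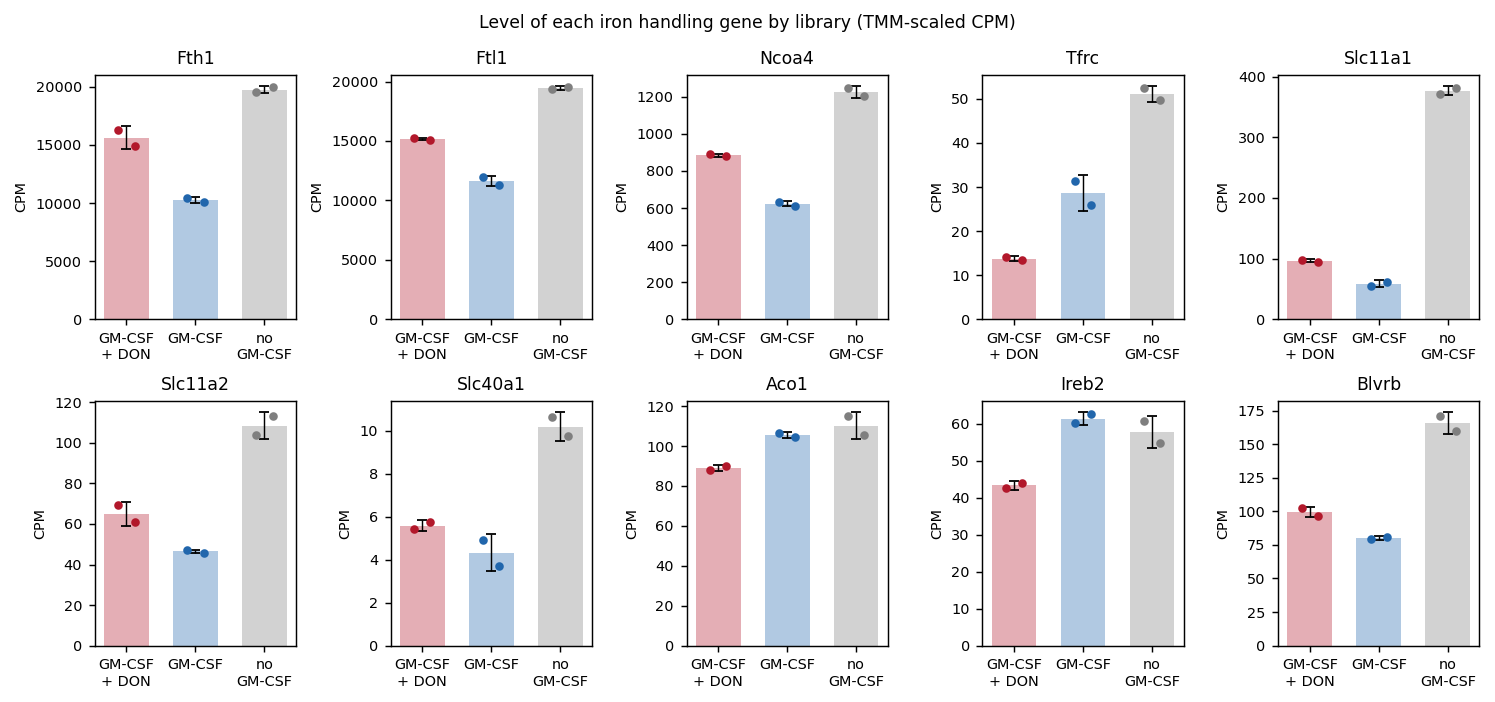
TMM-scaled CPM (vertical axis, from 0) of each iron gene in the 2 libraries of each group, as points, with the mean as a bar and the SD as a line. In the panels of Fth1, Ftl1, Ncoa4, Slc11a1, Slc11a2, Slc40a1 and Blvrb the group with DON lies between the others, and in those of Tfrc, Aco1 and Ireb2 it is the lowest.

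Ncoa4, the adaptor that delivers ferritin to lysosomes, had the same order of groups as its cargo. Its gene lies at chr14:32159865-32179855. Levels were 890.2 and 879 CPM with GM-CSF and DON, 632 and 613 with GM-CSF alone and 1248 and 1202 without GM-CSF. The replicates lay close to each other and the groups did not overlap. The rise with DON was 1.42-fold (log2 0.51 ± 0.04, adjusted p = 2.49e-06), and the level with GM-CSF was 1.97-fold lower than without it (log2 -0.98 ± 0.04, adjusted p = 1.83e-08).

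The transferrin receptor gene Tfrc, the main route of entry for transferrin iron, fell with GM-CSF and was lower still with DON. It lies at chr16:32608920-32632794. It had 14.1 and 13.4 CPM with GM-CSF and DON, 31.5 and 25.8 with GM-CSF alone and 52.3 and 49.8 without GM-CSF. All libraries with DON were below all others, and those without GM-CSF were above all others. With DON it was 2.09-fold lower than with GM-CSF alone (log2 -1.06 ± 0.10, adjusted p = 9.07e-06), and with GM-CSF alone 1.78-fold lower than without the cytokine (log2 -0.83 ± 0.09, adjusted p = 1.85e-05). Against no GM-CSF, the cells with DON were 3.72-fold lower (log2 -1.89 ± 0.09, adjusted p = 9.07e-08). The ratio of Fth1 to Tfrc counts was 1154 and 1113 with GM-CSF and DON, 332 and 391 with GM-CSF alone and 373 and 400.2 without GM-CSF. The groups with GM-CSF alone and without GM-CSF overlapped in this ratio, which was chosen after the values were seen, and the group with DON lay above both.

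**Figure D3:**
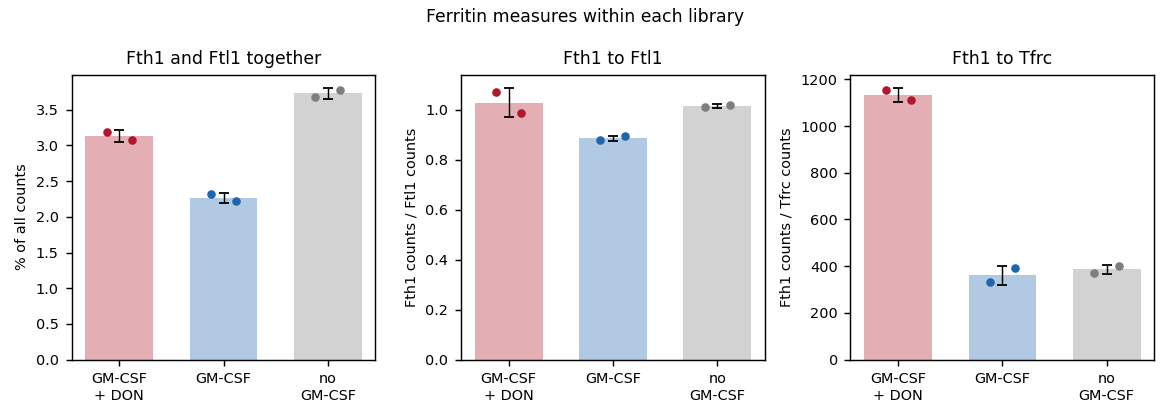
Share of all counts held by Fth1 and Ftl1 (left, in %), ratio of Fth1 to Ftl1 counts (middle) and ratio of Fth1 to Tfrc counts (right) in each library, as points, with group means as bars and SD as lines. The ferritin share is lowest with GM-CSF alone, and the ratio of Fth1 to Tfrc is 1133 ± 29.0 with GM-CSF and DON, 362 ± 41.3 with GM-CSF alone and 386 ± 19.5 without GM-CSF (SD, n = 2).

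The counts of Tfrc and its deposited FPKM (fragments per kilobase and 1e6 fragments) did not keep 1 ratio. The transcript length implied by both tables, after setting aside the library scale, was between 3129.6 and 4705 bases for Tfrc, a spread of 50.3%. It spread by 15.0% for Slc11a1, 12.9% for Slc11a2 and 5.19% for Ncoa4, and by at most 2.18% for the other 6. In FPKM, Tfrc was at 2.99 and 2.99 with GM-CSF and DON, 6.73 and 6.79 with GM-CSF alone and 12.2 and 15.9 without GM-CSF. The order of the groups was the same as by count, and the log2 ratio of mean FPKM was -1.18 for DON against GM-CSF alone and -1.06 for GM-CSF against no GM-CSF.

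The divalent metal transporters fell with GM-CSF, and with DON they were higher than with GM-CSF alone but below the level without it. Slc11a1 (NRAMP1) moves iron and manganese out of the phagosome and is known in mice as a gene of resistance to intracellular microbes. It lies at chr1:74375195-74386062. It had 98.6 and 94.6 CPM with GM-CSF and DON, 54.4 and 62.4 with GM-CSF alone and 371 and 382 without GM-CSF. The libraries without GM-CSF stood far above the rest, and the fall with GM-CSF, 6.46-fold (log2 -2.69 ± 0.06, adjusted p = 7.61e-10), was the largest difference of the 10 genes in the 3 comparisons. With DON it rose 1.66-fold (log2 0.73 ± 0.06, adjusted p = 7.67e-06) and stayed 3.90-fold below the level without GM-CSF (adjusted p = 4.92e-09).

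Slc11a2 (DMT1) carries iron from transferrin across the endosome membrane and lies at chr15:100387898-100425072. Levels were 69.1 and 60.7 CPM with GM-CSF and DON, 47.1 and 45.8 with GM-CSF alone and 104 and 113 without GM-CSF, with no overlap between groups. It rose with DON (log2 fold change 0.48 ± 0.07, adjusted p = 0.000246) and fell 2.33-fold with GM-CSF (log2 -1.22 ± 0.07, adjusted p = 2.82e-07). Per length, Slc11a1 stood at 1.82 and 2.13 times the FPKM of Slc11a2 with GM-CSF and DON, 1.81 and 2.03 times with GM-CSF alone and 5.41 and 4.45 times without GM-CSF.

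Slc40a1, which encodes ferroportin, the iron exporter, was the least abundant of the 10 per length. It lies at chr1:45908068-45926523. It had 155 and 188 counts with GM-CSF and DON, 168 and 111 with GM-CSF alone and 347 and 328 without GM-CSF. In CPM these were 5.42 and 5.77 with GM-CSF and DON, 4.93 and 3.73 with GM-CSF alone and 10.7 and 9.74 without GM-CSF. It fell 2.34-fold with GM-CSF (log2 -1.23 ± 0.14, adjusted p = 3.61e-05). DON against GM-CSF alone gave a log2 fold change of 0.36 ± 0.15 that did not pass the test (adjusted p = 0.0586), and without GM-CSF replicate 1 it passed (0.58, adjusted p = 0.0165). With DON the level was 1.82-fold below that without GM-CSF (adjusted p = 0.00037).

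The genes of the iron regulatory proteins were lower with DON and did not pass the test with GM-CSF. Aco1 encodes IRP1, which is a cytosolic aconitase when it holds an iron-sulfur cluster, and lies at chr4:40143081-40198338. It had 87.8 and 90.0 CPM with GM-CSF and DON, 106 and 104 with GM-CSF alone and 115 and 106 without GM-CSF. The libraries with DON were the lowest, and the other groups overlapped. The fall with DON was 1.19-fold (log2 -0.25 ± 0.05, adjusted p = 0.00274). Ireb2 encodes IRP2, which is degraded when iron is plentiful, and lies at chr9:54863789-54912530. It had 42.5 and 44.1 CPM with GM-CSF and DON, 60.2 and 62.5 with GM-CSF alone and 60.8 and 54.7 without GM-CSF, again with the DON libraries below the rest. With DON it fell 1.42-fold (log2 -0.50 ± 0.06, adjusted p = 8.11e-05). For GM-CSF against no GM-CSF the log2 fold changes were -0.06 ± 0.05 for Aco1 (adjusted p = 0.33) and 0.09 ± 0.06 for Ireb2 (adjusted p = 0.255). Scaled by total counts they were 0.06 (adjusted p = 0.377) and 0.21 (adjusted p = 0.0139), so that the sign for Aco1 and the call for Ireb2 depended on the scaling. The ratio of Aco1 to Ireb2 counts was 2.07 and 2.04 with GM-CSF and DON, 1.77 and 1.67 with GM-CSF alone and 1.89 and 1.93 without GM-CSF.

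Blvrb encodes biliverdin reductase B, a flavin reductase that also acts on products of heme breakdown, and lies at chr7:27447978-27466144. It had 102 and 96.6 CPM with GM-CSF and DON, 79.1 and 81.0 with GM-CSF alone and 171 and 159.7 without GM-CSF. The groups did not overlap, with DON in the middle. It rose 1.24-fold with DON (log2 0.31 ± 0.05, adjusted p = 0.000649) and fell 2.07-fold with GM-CSF (log2 -1.05 ± 0.05, adjusted p = 1.22e-07). Its counterpart Blvra, the main biliverdin reductase of adult tissue, was at 90.9 ± 0.743 CPM with GM-CSF and DON, 150.3 ± 0.653 with GM-CSF alone and 171 ± 0.329 without GM-CSF (SD, n = 2). Blvra fell with DON, by 0.73 ± 0.04 on the log2 scale (adjusted p = 6.05e-07), while Blvrb rose.

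Per gene length, the 10 spanned several orders of magnitude. In mean FPKM with GM-CSF and DON the order was Fth1 (22862 ± 1439), Ftl1 (19379.7 ± 124), Ncoa4 (306 ± 0.724), Blvrb (139 ± 6.03), Slc11a1 (55.7 ± 0.0214), Slc11a2 (28.4 ± 3.18), Aco1 (24.5 ± 0.781), Ireb2 (7.67 ± 0.194), Tfrc (2.99 ± 0.00401) and Slc40a1 (1.74 ± 0.0772) (SD, n = 2). No neighbours in that order overlapped in their libraries. With GM-CSF alone Fth1 and Ftl1 overlapped, at 15395 and 14948 and 15299.7 and 14580.1 FPKM, and Aco1 at 29.3 and 28.8 was above Slc11a2 at 19.7 and 20.1. Without GM-CSF, Tfrc at 12.2 and 15.9 FPKM was above Ireb2 at 10.8 and 9.71, and Slc11a1 at 237 and 236 overlapped Blvrb at 242 and 221. Slc40a1 was the lowest in each group. By FPKM, Fth1 ranked between 1 and 3 among all genes in the 6 libraries, and Slc40a1 between 8684 and 10128.

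**Figure D4:**
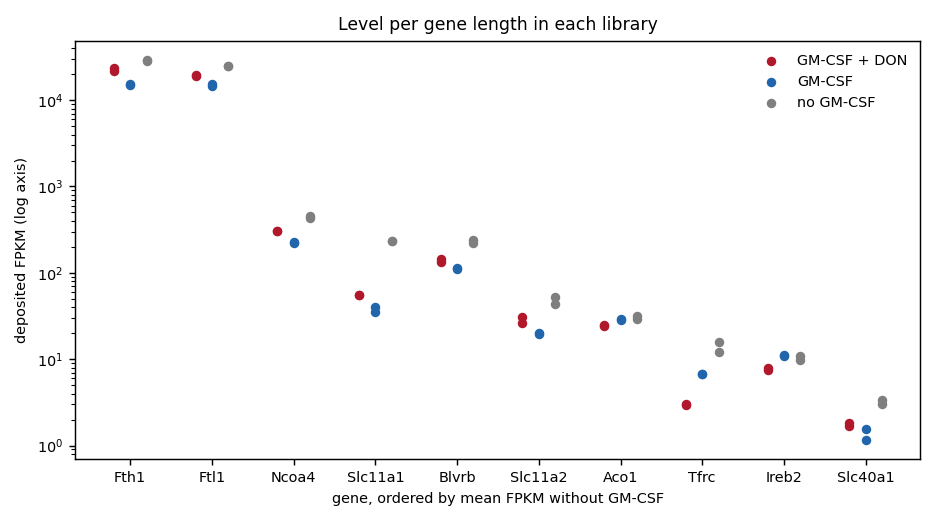
Deposited FPKM of the 10 iron genes (log axis) in each library, 1 point per library, with genes ordered by their mean without GM-CSF. Fth1 and Ftl1 lie far above the rest in every library and Slc40a1 lies lowest, between 1.17 and 3.35.

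Other genes of iron uptake moved in both directions. Of 17 listed, 9 were tested, and with DON 3 rose and 3 fell (median log2 fold change -0.14). Over all genes tested, 28.8% were called higher and 28.8% lower with DON, and 27.5% higher and 29.3% lower with GM-CSF. The counts of this list and of those that follow are to be read beside these shares. The lysosomal channel gene Mcoln1, whose product releases iron from lysosomes, was at 194 ± 2.45 CPM with GM-CSF and DON, 83.5 ± 0.700 with GM-CSF alone and 117 ± 0.529 without GM-CSF. It rose by 1.21 ± 0.04 with DON (adjusted p = 3.91e-08) and was also higher with DON than without GM-CSF (0.72 ± 0.04, adjusted p = 3.57e-07). Steap3, the ferrireductase of endosomes that works beside the transferrin receptor, fell with DON as Tfrc did (-0.95 ± 0.07, adjusted p = 1.58e-06). It was at 16.0 ± 0.684 CPM with GM-CSF and DON, 31.0 ± 0.929 with GM-CSF alone and 33.8 ± 0.114 without GM-CSF. Unlike Tfrc, Steap3 did not pass the test for GM-CSF against no GM-CSF (-0.13 ± 0.06, adjusted p = 0.105). The transferrin gene Trf rose with DON (0.47 ± 0.05) and fell with GM-CSF (-0.68 ± 0.05). The importer gene Slc39a14 rose with GM-CSF (0.76 ± 0.06). With GM-CSF 2 rose and 3 fell of 9 tested, with a median of -0.13.

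Genes of heme uptake and breakdown were mostly lower with GM-CSF. There, 9 of 10 tested fell and none rose, with a median log2 fold change of -0.69, where 29.3% of all genes were called lower. Some of the 9 had few counts. With GM-CSF alone Hp had 1 and 5 counts, Spic 3 and 3 and Slc46a1 18 and 20. Without GM-CSF Hp had 137 and 87, Spic 8 and 22 and Slc46a1 91 and 87. Heme oxygenase 1 (Hmox1), which opens the heme ring and frees its iron, was at 240.4 ± 19.4 CPM with GM-CSF and DON, 258 ± 11.3 with GM-CSF alone and 416 ± 1.51 without GM-CSF. It fell with GM-CSF (-0.69 ± 0.06, adjusted p = 3.71e-06), and DON against GM-CSF alone gave -0.10 ± 0.06 (adjusted p = 0.143). Hmox2, the constitutive heme oxygenase, rose with DON (0.37 ± 0.05, adjusted p = 0.000119) and fell with GM-CSF (-0.78 ± 0.05). The heme transporter gene Slc48a1 fell in both (-0.18 ± 0.04 with DON and -0.38 ± 0.04 with GM-CSF). Lrp1, a receptor for heme bound to hemopexin, was called lower with GM-CSF (-0.69 ± 0.23), a call that rested on no GM-CSF replicate 1, without which the value was -0.13 (adjusted p = 0.165). With DON against GM-CSF alone, 2 rose and 3 fell of 10 tested. Slc46a1 was among those that rose, at 47 and 29 counts with GM-CSF and DON. In heme synthesis, Alas1, its first enzyme, fell in both comparisons (-0.43 ± 0.04 with DON and -0.85 ± 0.04 with GM-CSF), while the list of 13 tested had 4 rises and 5 falls with DON. With GM-CSF it had 2 rises and 4 falls.

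Among 7 tested genes of iron sensing and the hepcidin axis, 2 rose and 3 fell with DON, beside 28.8% higher and 28.8% lower over all genes. Fbxl5, the ubiquitin ligase subunit that marks IRP2 for degradation, rose with DON to 69.7 ± 3.37 CPM, against 51.8 ± 2.54 with GM-CSF alone (0.43 ± 0.06, adjusted p = 0.000131). Its level without GM-CSF was 51.1 ± 0.534 CPM, and GM-CSF against no GM-CSF gave 0.02 ± 0.06 (adjusted p = 0.779). Pcbp2, which encodes an iron chaperone that hands iron to ferritin, rose as well (0.31 ± 0.04, adjusted p = 0.000119), and its relative Pcbp1 fell (-0.17 ± 0.04, adjusted p = 0.00385). Hfe, the membrane protein mutated in hemochromatosis, fell with GM-CSF to 11.2 ± 0.139 CPM, against 31.2 ± 1.29 without it (-1.47 ± 0.09, adjusted p = 3.37e-07), and fell further with DON (-0.43 ± 0.10, adjusted p = 0.00382).

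With DON, iron-sulfur cluster genes moved in both directions, as did all genes (28.8% called higher and 28.8% lower). With GM-CSF, 27.5% of all genes were called higher and 29.3% lower. Of 17 tested genes of mitochondrial assembly, 6 rose and 3 fell with DON (median 0.03), and 5 rose and 5 fell with GM-CSF (median 0.01). The co-chaperone Hscb moved most, at 19.9 ± 1.96 CPM with GM-CSF and DON, 6.57 ± 0.580 with GM-CSF alone and 15.0 ± 0.833 without GM-CSF (log2 1.60 ± 0.11 with DON, adjusted p = 1.16e-06). Of 11 cytosolic assembly genes, 2 rose and 5 fell with DON, and 4 rose and 0 fell with GM-CSF. Fam96a, a targeting subunit that matures IRP1, fell with DON to 77.9 ± 0.150 CPM, against 152 ± 0.221 with GM-CSF alone (-0.96 ± 0.04, adjusted p = 1.27e-07). Of 5 genes of mitochondrial iron import and related carriers, 2 rose and 2 fell with DON. The iron importer Slc25a28 (mitoferrin 2) was among those that rose (0.62 ± 0.09, adjusted p = 0.000243). Those that fell were Sfxn2 (-0.85 ± 0.08, adjusted p = 1.73e-05) and Sfxn1 (-0.66 ± 0.06, adjusted p = 6.90e-06).

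The transcription factor gene Nfe2l2 (NRF2), known to drive ferritin and Blvrb under oxidative stress, was at 363 ± 11.9 CPM with GM-CSF and DON, 431 ± 0.648 with GM-CSF alone and 757 ± 0.681 without GM-CSF. It fell with GM-CSF (-0.81 ± 0.04, adjusted p = 7.65e-08) and fell again with DON (-0.25 ± 0.04, adjusted p = 0.00036). The activity of the protein was not measured, and its part in the levels of the iron genes was not tested. Of 12 genes of NRF2 and oxidative stress, 1 rose and 9 fell with GM-CSF (median -0.39), beside 27.5% higher and 29.3% lower over all genes. With DON 4 rose and 4 fell (median -0.09), with Txnrd1 (-0.63 ± 0.05) and G6pdx (-0.55 ± 0.05) lower and Aifm2 (0.54 ± 0.06) higher. Myc, known to regulate Tfrc and the ferritin heavy chain, fell with DON (-0.58 ± 0.06, adjusted p = 2.64e-05). It was at 48.4 ± 1.33 CPM with GM-CSF and DON, 72.0 ± 3.54 with GM-CSF alone and 65.5 ± 3.79 without GM-CSF. GM-CSF against no GM-CSF gave 0.14 ± 0.06 for Myc, which did not pass the test (adjusted p = 0.0734), while Tfrc fell there. The part of Myc in these levels was not tested either.

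All 10 iron genes were lower in the cells with GM-CSF and DON than in those without GM-CSF. Of all genes tested, 27.2% were called higher and 28.4% lower in this comparison, and the list counts are to be read beside these shares. Of the other uptake genes 3 rose and 2 fell of 9 tested. Of the heme uptake and breakdown genes 0 rose and 6 fell of 10, among them Hp and Slc46a1, which had few counts. Of the NRF2 list 1 rose and 7 fell of 12. A ranking was made of the genes of the iron, heme, iron-sulfur and NRF2 lists outside the 10, with a mean of at least 10 CPM. Markers of cell types were not in it. The largest differences were the falls of Hfe (-1.90 ± 0.09, adjusted p = 7.46e-08) and of Alas1 (-1.29 ± 0.04, adjusted p = 2.68e-09). Next were Epas1, the hypoxia-inducible factor that responds to iron (-1.25 ± 0.05, adjusted p = 3.89e-08), and the sulfiredoxin gene Srxn1 (-1.19 ± 0.05, adjusted p = 2.80e-08). The mitochondrial chaperone gene Hspa9 (0.74 ± 0.04) and the scaffold gene Nfu1 (0.64 ± 0.05) of iron-sulfur assembly rose. Of the mitochondrial import genes 0 rose and 2 fell of 5. In heme synthesis 3 rose and 4 fell of 13, in mitochondrial iron-sulfur assembly 6 rose and 1 fell of 17, and in cytosolic assembly 3 rose and 3 fell of 11.

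**Figure D5:**
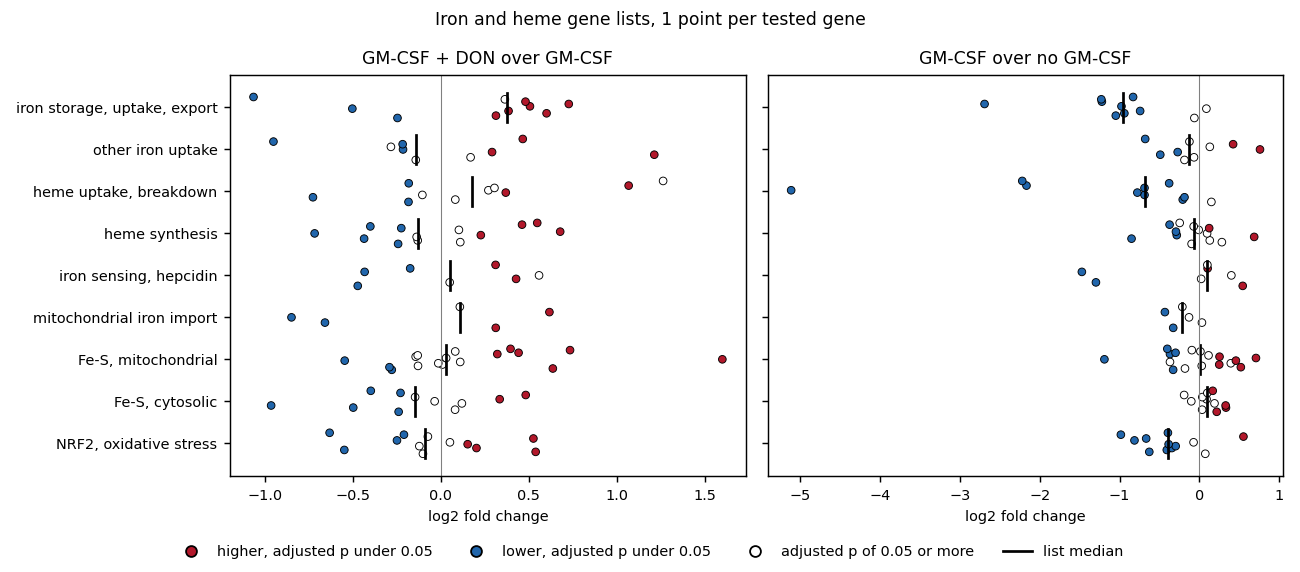
Log2 fold change (horizontal axis) of every tested gene of the iron, heme, iron-sulfur and NRF2 lists (rows), for GM-CSF with DON over GM-CSF (left) and GM-CSF over no GM-CSF (right), with list medians as vertical bars. The 10 iron genes have medians of 0.37 on the left and -0.96 on the right.

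Genes with the most similar pattern were sought among the 8163 genes that averaged 10 CPM or more, by the root mean square difference of centred log2 CPM over the 6 libraries. For Fth1 they were Ctsd, Txn1, Aldh2, Trafd1 and Gpsm3, at 0.0492 to 0.0573. The lysosomal protease gene Ctsd came first, at 14982 ± 521 CPM with GM-CSF and DON, 10354 ± 147 with GM-CSF alone and 20243 ± 115 without GM-CSF (SD, n = 2). For Tfrc the nearest were Stard4, P2ry6, Icam1, Gm5150 and Txnip, at 0.102 to 0.134. The cholesterol carrier gene Stard4 came first, at 11.3 ± 0.0247 CPM with GM-CSF and DON, 24.3 ± 0.102 with GM-CSF alone and 46.2 ± 3.64 without GM-CSF. For Slc11a1 they were Krt80, Itgb5, Trem2, Ncf4 and Clec4d, at 0.0744 to 0.151, and for Slc40a1 Ppfibp2, Rere, Ces2c, Prkar2b and Gngt2, at 0.0685 to 0.119. The likeness rests on 3 group levels and is a description.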

How the data were processed

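The 6 RNA libraries came from mouse alveolar macrophages (wild type, day 2), in 3 groups of 2 taken from the labels. RNA was taken with the RNeasy mini plus kit and sequenced on an Illumina HiSeq instrument, per the labels' protocols. The authors deposited whole-number counts per gene symbol and a separate FPKM table. The build mm10 and the tools DESeq2 1.28.1, Subread 1.4.6, featureCounts and STAR 2.6.0a are named, without their roles, per the submitters' processing notes. Annotation, strand setting and multi-mapping were not given in the sources used here.

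The counts were tested with edgeR 4.0.16 (R 4.3.3; quasi-likelihood, TMM, filterByExpr with a minimum count of 10) in 1 model of all 6 libraries. SE is the absolute log2 fold change over the square root of F, and p was adjusted by Benjamini-Hochberg over 12340 genes. The fit was tested on simulated data in which far fewer genes changed than were called here. That run therefore cannot show how the scaling behaves where most genes are called. Differences come from the counts, and FPKM gave levels per length. Total counts bound the precision, and p-values rest on 2 libraries a group. DESeq2 1.42.0 and other alternatives are in the closing section. Members and lists were chosen with earlier results of these data known. Named companions were the 4 largest called changes per list and comparison with a mean of at least 10 CPM, plus Hmox1, Fbxl5, Nfe2l2 and Myc, of which those that bear on the members are described. The 3 highest markers of a list could be named. Other markers, the ferritin copies Ftl2 and Fth-ps2, and Hp, Spic and Slc46a1 were chosen after their values were seen. A few genes and 1 marker list are not reported here.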

Additional observations from a re-analysis of the deposited data

How the results depend on the processing

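The alternatives were DESeq2 size factors, total counts without TMM, no filter on low counts, the DESeq2 Wald test, a fit of only the groups compared, a replicate block and leaving out each library in turn. Of 360 values for the 10 genes, 357 kept their direction and their side of the threshold. Slc40a1 for DON against GM-CSF alone passed without GM-CSF replicate 1 (0.58, adjusted p = 0.0165). Its adjusted p ranged between 0.0165 and 0.336 over the alternatives. By total counts, Ireb2 passed for GM-CSF against no GM-CSF (0.21, adjusted p = 0.0139) and Aco1 turned sign (0.057, adjusted p = 0.377). Leaving out a library gave 9 to 10 iron genes called for DON against GM-CSF alone, 8 for GM-CSF against no GM-CSF and 10 between GM-CSF with DON and no GM-CSF, and where it left 1 library in a group, that library is assumed to vary like the others. Over all genes, the lowest counts of calls when leaving out a library were 5884, 5686 and 5723 for these comparisons in turn, and with DESeq2 they were 6156, 6020 and 5797. Of 1164 values for the other named genes, 1123 kept direction and side, 37 lost the call, 3 gained it and 1 changed sign, Fbxl5 for GM-CSF against no GM-CSF without GM-CSF replicate 1 (-0.029, adjusted p = 0.771, and 0.071 without GM-CSF replicate 2).

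The ferritin share was 6.20%, 4.48% and 7.49% of summed FPKM (GM-CSF with DON, GM-CSF alone and no GM-CSF), and 2.19% with GM-CSF alone and 3.92% without GM-CSF over TMM-scaled library sizes. The ratio of Fth1 to Ftl1 in FPKM was 1.18, 1.02 and 1.17, and that of Fth1 to Tfrc, added after seeing the data, was 7651 with GM-CSF and DON, 2246 with GM-CSF alone and 2100.4 without GM-CSF. Lengths enter the FPKM ratios by construction.

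Whether libraries with the same replicate number were prepared together is not stated. The correlation of replicate differences over 8163 genes was 0.06 for GM-CSF with DON and GM-CSF alone. It was -0.05 for GM-CSF alone and no GM-CSF and -0.30 for GM-CSF with DON and no GM-CSF. These values cannot decide the question, since libraries prepared together need not share a replicate difference. With the replicate block, 9, 8 and 10 iron genes were called in the 3 comparisons, and 6882, 6708 and 6542 of all genes. The crossed pairing, added after seeing the data between GM-CSF with DON and no GM-CSF, gave 10 iron genes and 7063 of all genes.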
